A study of Mus musculus with 8 samples.

Results

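The genes described here are 35 genes of glycolysis and of the response to low oxygen, taken as a list of gene symbols from the count table of 4 mouse models of endometrial cancer. All 35 were among the 24419 genes of the table, and 34 of them were among the 15875 genes with enough reads to be tested. Each model was measured by RNA-seq in 2 libraries. The models began as organoids from the uterus of CAG-Cas9-EGFP mice, and the edited organoids were transplanted into the uterus of nude mice. The labels call the sequenced material tumor organoids, whereas the methods of the study describe tumor tissue, with the 2 replicates taken from separate mice. In tumor tissue the RNA of host cells is read together with that of the edited cells, so that fewer cells of a type and less RNA per cell could not be told apart.

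All 4 models carried an sgRNA against Trp53, and the edits were made in pools of organoids. TPM also carried introduced Myc. TPMCa, labelled TPMPik3ca, was TPM with an added Pik3ca E545K cDNA. TPMR1, labelled TPMPik3r1, was TPM with an added sgRNA against Pik3r1. TPK shared the Trp53 sgRNA, was made without introduced Myc, and carried another oncogene cDNA in its place. Pik3ca encodes the catalytic subunit and Pik3r1 a regulatory subunit of PI3K, and the comparisons with TPM ask how these added alterations changed the tumors.

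Glycolysis turns glucose into pyruvate, and lactate dehydrogenase then makes lactate, which leaves the cell through a monocarboxylate transporter. When oxygen is short, the prolyl hydroxylases that mark HIF alpha subunits for destruction work less, HIF accumulates, and it binds short DNA motifs near its targets. Many of those targets are glycolytic enzymes, glucose transporters, carbonic anhydrases and collagen-modifying hydroxylases. Myc and PI3K signaling are also known to raise the expression of glycolytic genes in tumors.

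The promoters of 4 of the genes are printed as examples that hold from 1 to 5 copies of the core letters of a HIF-binding motif. The sequences are from RefSeq, build GRCm38.p6, 250 bases before to 50 bases after the start of the transcript, and the capitals mark the cores ACGTG and GCGTG on either strand, with overlapping matches counted separately. P4ha1 lies on the plus strand (chr10:59323046-59323345), Slc16a3 on the plus strand (chr11:120948817-120949116), Bnip3 on the minus strand (chr7:138909457-138909756) and Car9 on the plus strand (chr4:43506776-43507075).
P4ha1: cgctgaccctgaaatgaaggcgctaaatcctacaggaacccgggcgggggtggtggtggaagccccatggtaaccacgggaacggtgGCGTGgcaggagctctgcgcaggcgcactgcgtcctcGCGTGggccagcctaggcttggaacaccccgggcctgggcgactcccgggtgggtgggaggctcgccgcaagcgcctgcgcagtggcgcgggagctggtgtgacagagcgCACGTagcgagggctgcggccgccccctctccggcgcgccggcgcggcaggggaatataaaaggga
Slc16a3: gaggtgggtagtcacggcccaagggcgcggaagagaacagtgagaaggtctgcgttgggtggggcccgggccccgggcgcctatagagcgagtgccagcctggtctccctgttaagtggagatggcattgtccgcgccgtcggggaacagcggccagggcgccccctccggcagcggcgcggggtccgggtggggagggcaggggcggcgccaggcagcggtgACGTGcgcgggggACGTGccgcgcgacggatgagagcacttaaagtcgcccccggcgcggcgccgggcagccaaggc
Bnip3: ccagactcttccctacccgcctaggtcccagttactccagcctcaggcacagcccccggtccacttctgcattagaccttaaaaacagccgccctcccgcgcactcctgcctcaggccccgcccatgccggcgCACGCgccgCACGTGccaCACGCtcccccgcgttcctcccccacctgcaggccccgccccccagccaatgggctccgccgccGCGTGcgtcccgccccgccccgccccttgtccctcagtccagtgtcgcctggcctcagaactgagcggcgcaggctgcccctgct
Car9: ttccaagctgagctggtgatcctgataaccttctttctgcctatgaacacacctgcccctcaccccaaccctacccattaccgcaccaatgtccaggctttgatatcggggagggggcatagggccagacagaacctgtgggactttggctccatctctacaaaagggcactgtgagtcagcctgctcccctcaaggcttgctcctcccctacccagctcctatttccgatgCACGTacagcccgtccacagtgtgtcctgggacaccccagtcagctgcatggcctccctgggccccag
The P4ha1 promoter held 3 cores, that of Slc16a3 held 2, that of Bnip3 held 5 and that of Car9 held 1. In Bnip3, 2 of the matches are the palindrome CACGTG read on both strands. The table held 47 promoters of 32 of the 35 genes, and Epas1, Slc2a3 and Ndrg1 had no entry. At least 1 core was found in 36 of these 47 promoters (76.6%), against 43.8% of all 32851 promoters, and 2 or more in 55.3%, against 20.6%. The palindrome CACGTG, the E-box bound by Myc and other factors, was found in 10.6%, against 7.15% of all promoters. Some genes have more than 1 promoter here. Counted by gene, at least 1 core was found in 28 of 32 (87.5%), against 46.7% of all genes, and the promoters of Gpi1, Tpi1, Eno2 and Car12 held 0. The list was drawn from hypoxia response and glycolysis genes, so a high share was likely from the start, and base composition was not matched. A match describes the letters in the window and is not a measured binding site.

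Library totals ran from 15748396 to 26943611 counts, at which 3 counts correspond to 0.116 to 0.198 CPM, the count scaled to the normalized size of its library. Trp53 was at 106 and 131 CPM in TPM and at 33.2 to 78.5 CPM in the other models. The deposited Myc level was 772 and 1767 CPM in TPM, 3075 and 324 in TPMCa, 606 and 466 in TPMR1 and 154 and 92.8 in TPK, so the 2 TPMCa libraries differed widely. Pik3ca was at 89.9 and 83.3 CPM in TPMCa, which carried the added cDNA, and at 60.9 to 80.1 CPM in the other models. This margin was small, so the Pik3ca values do not check the label. Pik3r1 ran from 51.3 to 188 CPM over the 8 libraries, and since small deletions can leave a transcript at its level, its values check no label either. Summed over 6 epithelial markers, the level was 2941 to 5498 CPM in the TPM and TPK libraries but 6.47 to 73.3 CPM in the TPMCa and TPMR1 libraries. Squamous markers, 7 genes, ran from 4052 to 27960 CPM in the first group and from 3.45 to 13.2 CPM in the second, with 3 of the 7 at 0 counts in TPMR1. The defining markers of an epithelial tumor were therefore close to absent in TPMCa and TPMR1.

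The 35 genes took 1.09% to 2.61% of the reads of a library, with the highest share in replicate 1 of TPMCa. This library stood apart from its replicate: 32 of the 34 tested genes were higher in replicate 1 than in replicate 2 of TPMCa, with a median difference of 1.07 on the log2 scale, while 47.2% of all tested genes were higher there, with a median of -0.02. In all, 21 of the 34 differed more than 2-fold between the TPMCa replicates, against 24.8% of all genes. Replicate 1 of TPMCa was the highest of the 8 libraries for 20 of the 34 genes, against 14.4% of all genes. The widest gaps were those of Slc2a3, Car9 and Ddit4.

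In TPM, by contrast, 1 of the 34 genes, Aldoc, differed more than 2-fold between replicates, against 17% of all genes. The median difference of the 34 was -0.05. In TPK, 28 of 34 were higher in replicate 1, with a median of 0.39, against 49.4% of all genes. Of the 34, 3 differed more than 2-fold, against 19.1% of all genes: Egln1 and Car9, higher in replicate 1, and Pfkm, higher in replicate 2. The 5 skeletal muscle markers summed to 2.17 CPM in TPK replicate 1 and 832 in replicate 2, against 8.35 to 84.0 CPM in the other models. The part of muscle in these levels was not tested. In TPMR1, 19 of the 34 genes were higher in replicate 1 and 15 in replicate 2, while 49.4% of all genes were higher in replicate 1. All 9 genes of upper glycolysis, the steps from hexokinase to triose phosphate isomerase, were higher in replicate 1. Both HIF alpha subunits, both prolyl hydroxylases and both glucose transporters were higher in replicate 2. The other roles were divided, such as the carbonic anhydrases, with Car9 higher in replicate 1 and Car12 in replicate 2. Over all genes the TPMR1 replicates were the least alike, since 37.1% differed more than 2-fold.

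**Figure D1:**
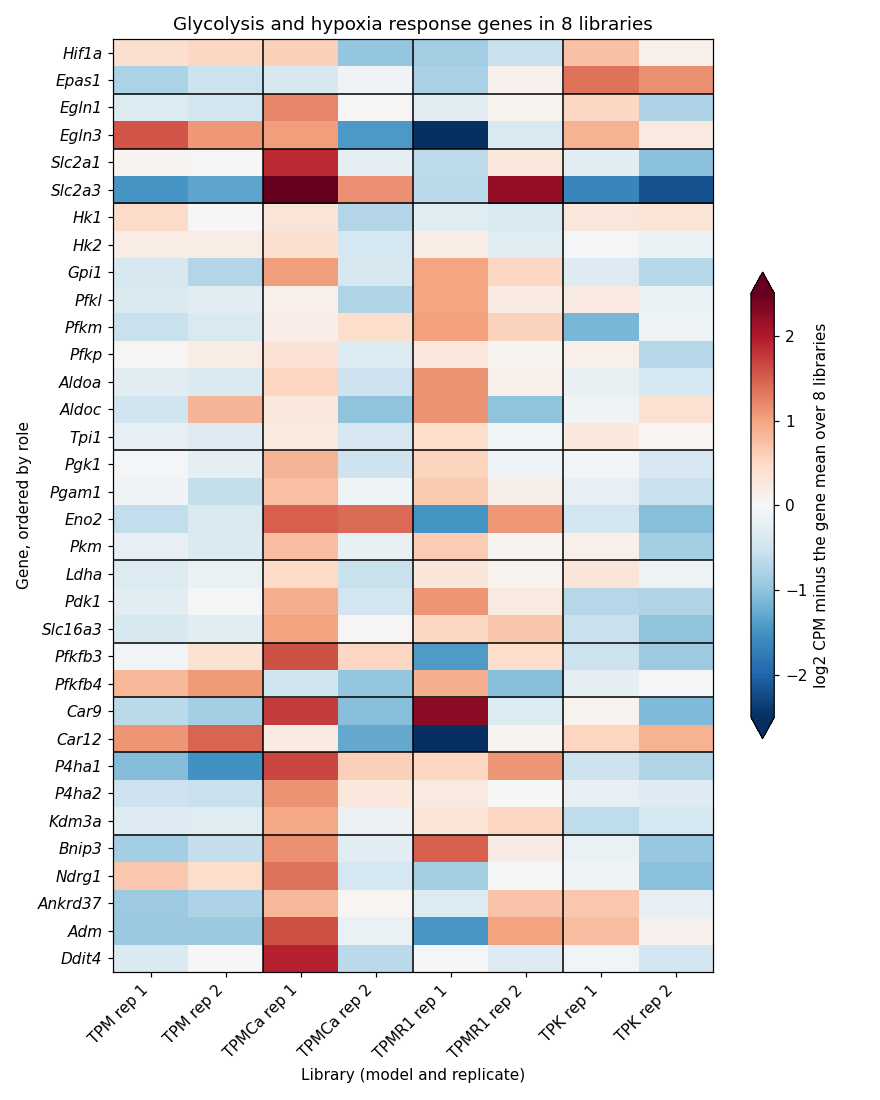
Levels of the 34 tested genes (rows, ordered by role, with lines between roles) in the 8 libraries (columns), as log2 CPM minus the mean of the gene over the 8 libraries. Replicate 1 of TPMCa is the highest library for 20 of the 34 genes, and Epas1 stands out in both TPK libraries.

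**Figure D2:**
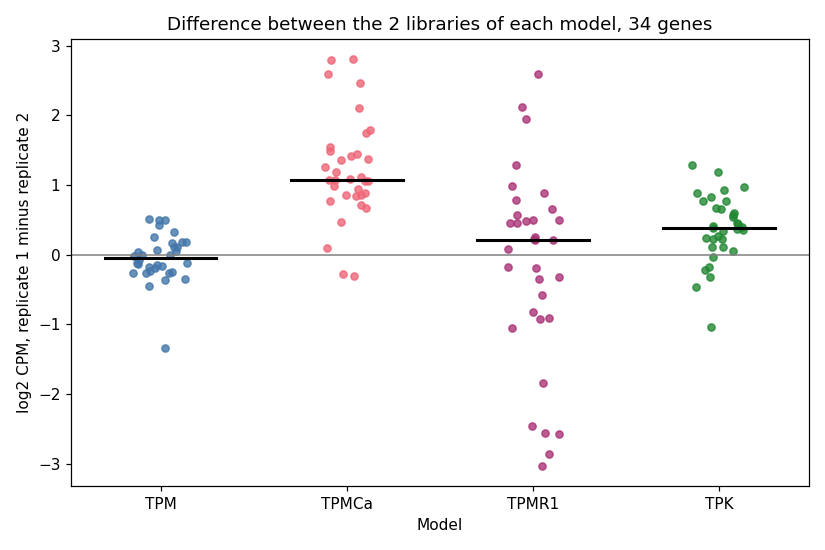
Difference in log2 CPM between replicate 1 and replicate 2 of each model (x axis) for 34 genes, each dot 1 gene and each bar the median. The TPMCa dots lie above 0 for 32 of 34 genes with a median of 1.07, while the TPM dots center on -0.05.

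Other values moved with the gap between the TPMCa libraries. Replicate 1 had 3075 CPM of Myc and replicate 2 had 324. The 5 neutrophil markers summed to 2187 CPM in replicate 1 and 291 in replicate 2, the 5 macrophage markers to 926 and 3976, and the 6 fibroblast markers to 8509 and 16600. In TPMR1, the fibroblast sum was 876 CPM in replicate 1 and 6582 in replicate 2, the neutrophil sum 14.4 and 527, and the endothelial sum, 5 genes, 171 and 673. None of these lists had a gene at 0 counts in both libraries of either model, and their part in the levels of the glycolysis and hypoxia genes was not tested.

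The HIF alpha subunits differed in the pattern of their RNA, and their protein was not measured. Hif1a, the subunit found in most cells, was at 354 and 383 CPM in TPM, 403 and 137 in TPMCa, 146 and 183 in TPMR1 and 446 and 294 in TPK. It was lowest in TPMR1 and in the second TPMCa library, and the TPMR1 libraries lay below those of TPM. Epas1, which encodes HIF-2 alpha, a subunit prominent in endothelium, was at 45.4 and 54.5 CPM in TPM, 60.1 and 74.5 in TPMCa, 45.1 and 85.7 in TPMR1 and 204 and 174 in TPK. Both TPK libraries lay above the other 6. The gene lies on chromosome 17 of GRCm38 from 86753700 to 86833410, and Slc16a3, described with lactate, on chromosome 11 from 120948480 to 120960868. Per kilobase of exon, Epas1 made up 12.5% of the sum of both subunits in TPM on average, 24.98% in TPMCa, 28.8% in TPMR1 and 35.5% in TPK.

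The prolyl hydroxylases are themselves targets of HIF. Egln1, the main oxygen sensor, was at 151 and 140 CPM in TPM, 446 and 195 in TPMCa, 160.4 and 204 in TPMR1 and 277 and 114 in TPK. Egln3, strongly induced by low oxygen in many cells, was at 709 and 503 CPM in TPM, 487 and 87.8 in TPMCa, 30.2 and 181 in TPMR1 and 435 and 277 in TPK. The TPMCa and TPMR1 libraries all lay below those of TPM for Egln3 and above them for Egln1. Per kilobase, Egln1 made up 15.4% of the pair in TPM, 51.3% in TPMCa, 62.6% in TPMR1 and 27.7% in TPK.

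Of the glucose transporters, Slc2a1 is the widely used one and Slc2a3 has the higher affinity. Slc2a1 was at 364 and 355 CPM in TPM, 1257 and 292 in TPMCa, 220.3 and 415 in TPMR1 and 288 and 169 in TPK. Slc2a3 was at 10.1 and 11.2 CPM in TPM, 431 and 61.9 in TPMCa, 17.5 and 128 in TPMR1 and 9.03 and 6.20 in TPK. For Slc2a3 each TPMCa and TPMR1 library lay above every TPM and TPK library, although the TPMCa libraries spanned 61.9 to 431 CPM, and for Slc2a1 they overlapped with those of TPM and TPK. Slc2a1 remained the larger of the pair per kilobase, at 85.8% to 98.7% in the 8 libraries.

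In upper glycolysis, Hk2, the hexokinase typical of tumors and muscle, had levels of the same order in all models, at 209.3 and 209.8 CPM in TPM, 243 and 135 in TPMCa, 209.9 and 149 in TPMR1 and 178 and 165 in TPK. The libraries of all 4 models fell within 135 to 243 CPM. Pfkl, the liver-type phosphofructokinase, was at 261 and 275 CPM in TPM, 366 and 198 in TPMCa, 664 and 385 in TPMR1 and 387 and 297 in TPK. TPMR1 was above TPM and TPMCa in both libraries, while its replicate 2 lay just under the higher TPK library. Per kilobase the most abundant of the 34 genes was Ldha in TPM and TPK (508 and 649 CPM per kilobase), Pkm in TPMCa (791) and Aldoa, the main aldolase, in TPMR1 (965).

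Among the later steps, Pkm, the pyruvate kinase of most tissues other than liver, was at 2671 and 2372 CPM in TPM, 5202 and 2706 in TPMCa, 4783 and 3219 in TPMR1 and 3350 and 1703 in TPK. Ldha, which reduces pyruvate to lactate, was at 1580 and 1783 CPM in TPM, 2837 and 1355 in TPMCa, 2475 and 2130 in TPMR1 and 2471 and 1822 in TPK. The TPMR1 libraries lay above those of TPM for both genes, and the TPMCa libraries did so for Pkm only of the pair. Slc16a3, the lactate exporter of glycolytic cells, was at 159 and 172 CPM in TPM, 424 and 215 in TPMCa, 301 and 341 in TPMR1 and 143 and 104 in TPK. Every TPMCa and TPMR1 library exceeded every TPM and TPK library for Slc16a3.

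The enolase Eno1 had 0 counts in the 6 TPM, TPMCa and TPK libraries and 4 and 1 in TPMR1, so it was not tested. Eno1b, a near-identical copy, had 1614 to 6806 counts per library, and reads of the 2 copies cannot be told apart. Eno1b, which was named after its values were seen, was at 112 and 129 CPM in TPM, 431 and 267 in TPMCa, 232 and 230.5 in TPMR1 and 179 and 106 in TPK. Each TPMCa and TPMR1 library was above every TPM and TPK library, and Eno1b was called in none of the 5 comparisons, with edgeR adjusted p of 0.0730 for TPMCa against TPM and 0.0847 for TPK against the mean of TPMCa and TPMR1.

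Pfkfb3 and Pfkfb4 set the level of the activator of phosphofructokinase. Pfkfb3 was at 118 and 161 CPM in TPM, 375 and 177 in TPMCa, 46.5 and 167 in TPMR1 and 85.3 and 66.1 in TPK. Pfkfb4 was at 63.6 and 74.5 CPM in TPM, 25.3 and 18.3 in TPMCa, 66.9 and 17.2 in TPMR1 and 29.9 and 34.9 in TPK. Pfkfb3 made up 56.3% of the pair per kilobase in TPM and 88.4% in TPMCa, while the 2 TPMR1 libraries lay at 30.9% and 86.2%, on either side.

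The membrane carbonic anhydrases, which handle the acid that glycolysis exports, differed in pattern. Car9, a widely used marker of hypoxia, was at 54.6 and 48.3 CPM in TPM, 292 and 41.6 in TPMCa, 414 and 68.6 in TPMR1 and 92.9 and 40.6 in TPK. Car12 was at 426 and 547 CPM in TPM, 229.7 and 82.0 in TPMCa, 25.6 and 209.99 in TPMR1 and 290 and 363 in TPK. Car12 was lower in every TPMCa and TPMR1 library than in every TPM and TPK library, whereas Car9 was high in replicate 1 of TPMCa and of TPMR1 and between 40.6 and 92.9 CPM in the other 6 libraries. Car9 made up 26.1% of the pair per kilobase in TPM, 71.7% in TPMCa, 75.01% in TPMR1 and 39.2% in TPK.

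In the collagen prolyl hydroxylases, P4ha1 is the main catalytic subunit. The gene lies on chromosome 10 of GRCm38 from 59323296 to 59373304. It was at 66.6 and 49.4 CPM in TPM, 449 and 214 in TPMCa, 205 and 306 in TPMR1 and 98.7 and 83.7 in TPK. Every TPMCa and TPMR1 library lay above every TPM and TPK library. Of the pair with P4ha2, P4ha1 made up 58.6% per kilobase in TPM, 76.6% in TPMCa, 79.3% in TPMR1 and 65.1% in TPK. Among the remaining hypoxia-response genes, Adm, which encodes a vasodilator peptide, was at 25.05 and 25.2 CPM in TPM, 143 and 42.5 in TPMCa, 17.4 and 96.0 in TPMR1 and 81.5 and 51.2 in TPK. Ndrg1, a stress-response gene, was at 677 and 570.2 CPM in TPM, 1086 and 312 in TPMCa, 234 and 417 in TPMR1 and 392 and 205 in TPK. Both TPK libraries lay above TPM for Adm and below it for Ndrg1.

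The other 16 tested genes are given by their ranges over the 8 libraries. In upper glycolysis these ran from 118 to 273 CPM for Hk1, 545.2 to 1870 for Gpi1, 31.1 to 139 for Pfkm, 92.4 to 195 for Pfkp, 1202 to 3733 for Aldoa, 16.4 to 72.1 for Aldoc and 655 to 1186 for Tpi1. In lower glycolysis they ran from 783 to 2016 CPM for Pgk1, 624 to 1597 for Pgam1 and 7.16 to 56.8 for Eno2, and Pdk1 ran from 104 to 378. The genes of upper glycolysis with their highest level in TPMR1 replicate 1 were Pfkl, Pfkm, Aldoa, Aldoc and Tpi1, while Pgk1, Pgam1 and Eno2 were highest in TPMCa replicate 1. P4ha2 ran from 60.3 to 194 CPM, Kdm3a from 70.2 to 212, Ankrd37, a classical HIF target, from 15.1 to 50.03 and Ddit4 from 244 to 1471, each with its maximum in TPMCa replicate 1. Bnip3, a mediator of mitochondrial autophagy, was at 107 and 128 CPM in TPM, 429 and 160.06 in TPMCa, 546 and 224 in TPMR1 and 173 and 101 in TPK. Its highest libraries were replicate 1 of TPMR1 and of TPMCa, as for Car9.

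**Figure D3:**
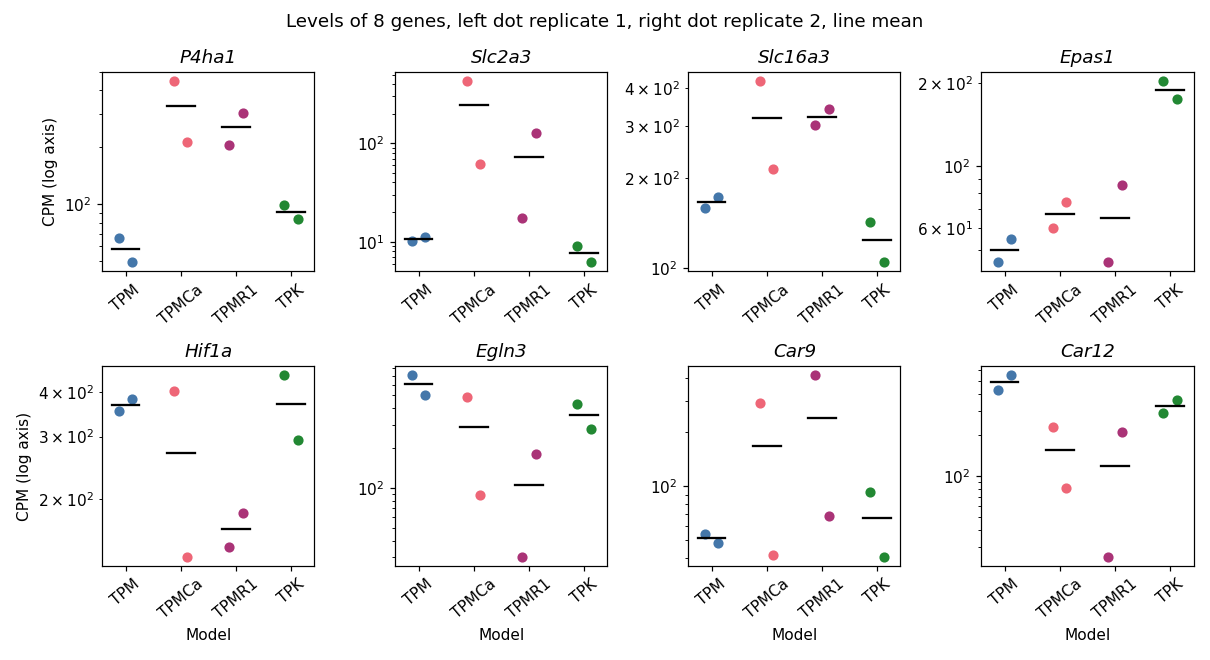
CPM of 8 genes on log axes in the 4 models, each dot 1 library (replicate 1 left, replicate 2 right) and each line the mean of 2. For P4ha1, Slc16a3 and Slc2a3 the TPMCa and TPMR1 dots lie above all TPM and TPK dots, and for Epas1 the TPK dots lie above all others.

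**Figure D4:**
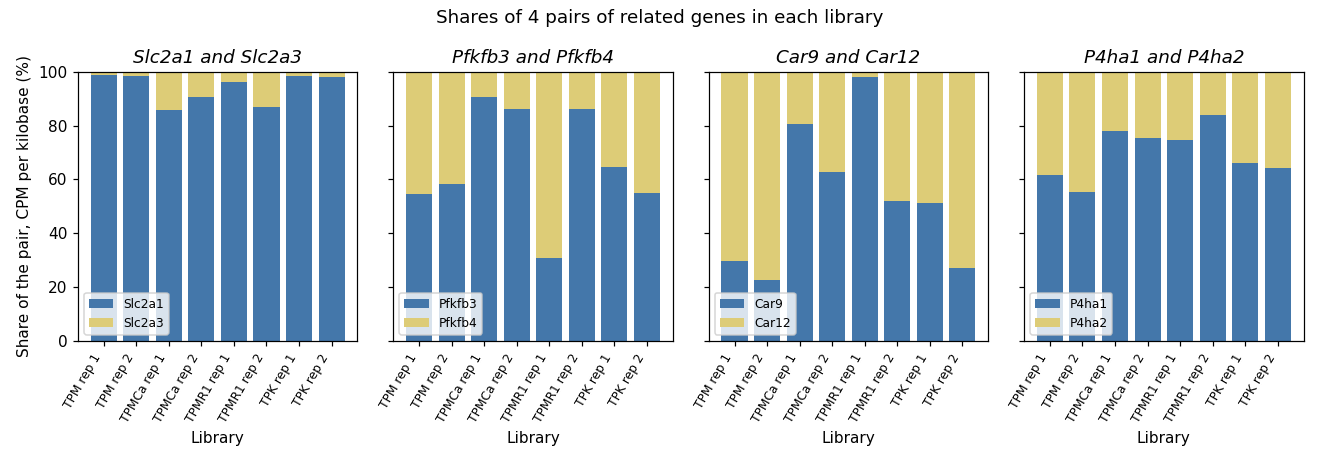
Share of each gene in 4 pairs of related genes in each library, as a percent of the summed CPM per kilobase. The P4ha1 share is 55.4% to 61.8% in TPM and 74.8% to 83.9% in TPMCa and TPMR1, whereas the Pfkfb3 share differs between the 2 TPMR1 libraries, at 30.9% and 86.2%.

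The 5 comparisons were fitted together over the 8 libraries with edgeR, and a gene was called at an adjusted p under 0.05. They share libraries with each other, so their values are given side by side and not as separate evidence. In TPMCa against TPM, 26 of the 34 tested genes had a higher level and 8 a lower level, with a median log2 fold change of 0.68, while 49.3% of all genes were higher and their median was -0.01. Of the 34, 1 passed the test: P4ha1 rose by 2.52 on the log2 scale (SE 0.43, edgeR adjusted p = 0.0336), where 3.48% of all tested genes were called in either direction 0.466% higher and 3.02% lower. Slc2a3 had the largest estimate, 4.54 (SE 1.22, edgeR adjusted p = 0.0978), and P4ha2 had 1.29 (edgeR adjusted p = 0.0833), but neither was called. At the other end were Pfkfb4, at -1.66 (edgeR adjusted p = 0.176), and Car12, at -1.64 (edgeR adjusted p = 0.337). The libraries did not overlap for 15 genes that were higher and 3 that were lower, against 29.1% and 32.2% of all genes. Among the 9 upper glycolysis genes 5 were higher and none was called, while all 4 tested genes of lower glycolysis and all 5 of the other hypoxia response genes were higher and none was called.

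This direction rested on replicate 1 of TPMCa. Without it the median was -0.15, 16 genes were higher and 18 lower, and none was called, and P4ha1 then had a log2 fold change of 1.90 (edgeR adjusted p = 0.119). The P4ha1 call was also lost without either TPM library, without TPMCa replicate 2 or without either TPK library (edgeR adjusted p = 0.0658 to 0.169), with estimates from 1.90 to 2.95. Without either TPMR1 library, by contrast, 4 genes were called: P4ha1, Slc2a3 and Eno2, the neuronal enolase, higher, and Pfkfb4 lower, where 10.6% and 10.5% of all genes were called without replicate 1 and replicate 2 of TPMR1. Without TPMCa replicate 1, Car9, Slc2a1, Ndrg1 and Ddit4, an inhibitor of mTORC1, fell on the other side of 0. So did Pfkl, Aldoa, Tpi1, Pgk1, Ldha and Pdk1. Markers of other cell types moved with this comparison: all 5 endothelial markers were higher in TPMCa with a median log2 fold change of 1.93, all 5 macrophage markers with 1.98 and all 6 fibroblast markers with 1.47, while all 6 epithelial markers were lower with -6.21. The endothelial sum was 105 to 122 CPM in TPM and 412 to 543 in TPMCa, and the part of these cells in the result was not tested.

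**Figure D5:**
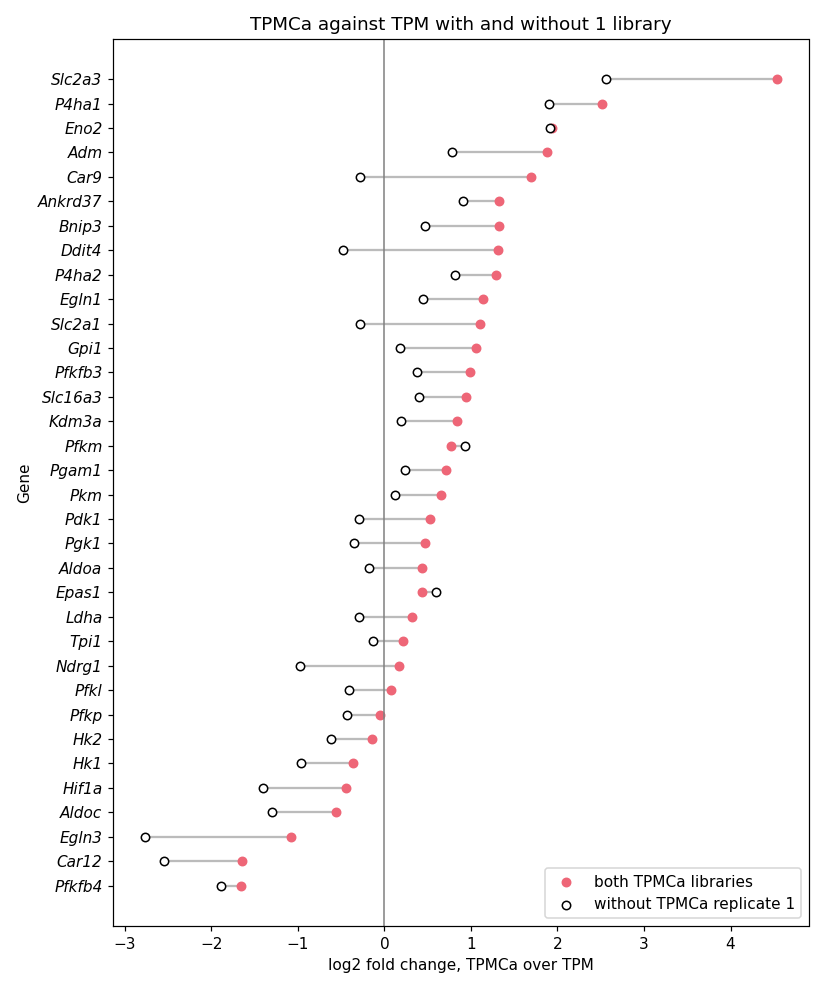
Log2 fold change of TPMCa over TPM for 34 genes (rows), with both TPMCa libraries (filled) and without replicate 1 of TPMCa (open). The open symbols lie to the left for most genes, their median is -0.15 against 0.68, and P4ha1, Slc2a3 and Eno2 stay above 1.

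In TPMR1 against TPM, 24 genes were higher and 10 lower, with a median of 0.57 against 0.03 for all genes, of which 51.6% were higher. P4ha1 was again the only one of the 34 genes called, and rose by 2.14 on the log2 scale (SE 0.43, edgeR adjusted p = 0.0391), where 5.58% of all tested genes were called 1.08% higher and 4.5% lower. Slc2a3, at 2.78, and Car9, at 2.23, had larger estimates but were not called (edgeR adjusted p = 0.203 and 0.282). Egln3, at -2.52, and Car12, at -2.05, had the most negative (edgeR adjusted p = 0.204 and 0.249). The libraries did not overlap for 18 genes that were higher and 5 that were lower, against 24.5% and 28.4% of all genes. All 3 genes at the fate of pyruvate, Ldha, Pdk1 and Slc16a3, were higher in both TPMR1 libraries than in both TPM libraries, with log2 fold changes of 0.45, 0.87 and 0.95, and none was called. Pdk1 encodes a kinase that holds pyruvate back from mitochondrial oxidation.

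The P4ha1 call was lost without either TPM library, without TPMR1 replicate 2, without either TPK library, or in a fit of these 2 models alone (edgeR adjusted p = 0.0521 to 0.190), with estimates from 1.82 to 2.40. Pfkfb4 was called lower without TPMR1 replicate 1, and Car12 without TPMR1 replicate 2, where 4.64% and 13.1% of all genes were called. The estimate for Slc2a3 ran from 0.72 to 3.59 and that for Car9 from 0.42 to 3.01 as single libraries were left out. The 5 endothelial markers were all higher in TPMR1 than in TPM, with a median log2 fold change of 1.76 and sums of 171 to 673 CPM, and the 6 epithelial markers were all lower, with a median of -8.32. Of the macrophage markers 4 were lower and 1 higher (median -0.285), and of the fibroblast markers 4 were lower and 2 higher (median -0.451). All 5 neutrophil markers were lower, with a median of -1.43. Their part in the result was not tested.

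Between TPMR1 and TPMCa, 15 of the 34 genes were higher in TPMR1 and 19 were lower, with a median of -0.07, while 51% of all genes were higher. With edgeR none of the 34 genes was called and none had an unadjusted p under 0.05, while 0% of all genes were called and 11.8% had an unadjusted p under 0.05. DESeq2 called none of the 34 either, and 767 of all genes. The most negative estimates were those of Slc2a3 and Egln3, at -1.76 and -1.44, and the largest positive ones were those of Pfkfb4 and Pfkl, at 0.95 and 0.89. Markers of other cell types differed as well. All 5 macrophage markers were lower in TPMR1 (median log2 fold change -2.305), as were all 6 fibroblast markers (-1.861). Of the endothelial markers 4 were lower and 1 higher (-0.243). Their part in the result was not tested. Among the 34 genes, libraries did not overlap for 2 higher and 3 lower, against 18.8% and 17.7% of all genes. Without TPMCa replicate 1 the median was 0.48 with 29 genes higher, and without TPMR1 replicate 2 edgeR called Eno2 and Pfkfb3 lower and Pfkfb4 higher, where 8.71% of all genes were called.

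TPK and TPM share the Trp53 sgRNA and differ in the oncogenes introduced. In TPK, 16 of the 34 genes were higher and 18 lower, with a median of -0.05, while 50.8% of all genes were higher and their median was 0.01. With edgeR none of the 34 was called, 0% of all genes were called, and 1 of the 34 had an unadjusted p under 0.05, against 7.17% of all genes. That gene was Epas1, with a log2 fold change of 1.92 (SE 0.36, edgeR adjusted p = 0.653), which DESeq2 called (adjusted p = 0.00167), together with 240 genes in all. Adm had the next largest estimate, 1.40, and Pfkfb4 and Ndrg1 had the most negative, -1.09 and -1.06. Libraries did not overlap for 8 genes higher and 11 lower, against 24.4% and 23.5% of all genes. The median ran from -0.30 without TPK replicate 1 to 0.08 without TPK replicate 2. All 5 macrophage markers were higher in TPK, with a median log2 fold change of 1.22, and their libraries did not overlap. All 5 skeletal muscle markers were also higher, with a median of 4.27, but their sum was 2.17 CPM in TPK replicate 1 and 832 in replicate 2. Of the endothelial markers 2 were higher and 3 lower (median -0.223). The part of these cells in the result was not tested.

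When TPK was set against the average of the 2 PI3K-altered models, 26 of the 34 genes were lower in TPK and 8 were higher, with a median of -0.66, while 49.9% of all genes were higher and their median was -0.002. Epas1 rose by 1.51 on the log2 scale (SE 0.29, edgeR adjusted p = 0.0193). P4ha1 fell by 1.67 (SE 0.39, edgeR adjusted p = 0.0344) and Slc16a3 fell by 1.37 (SE 0.34, edgeR adjusted p = 0.0417). These 3 calls stand beside 14.4% of all genes called in either direction, 10.3% higher and 4.06% lower. Slc2a3 had the most negative estimate, -4.13 (SE 1.15, edgeR adjusted p = 0.0587), and Car12 the second highest, 1.27 (edgeR adjusted p = 0.290). At an unadjusted p under 0.05, 8 genes were lower, against 13.3% of all genes, and these included all 3 genes of the collagen and histone dioxygenases, P4ha1, P4ha2 and Kdm3a, a histone demethylase. Libraries did not overlap for 8 genes lower and 2 higher, against 18.5% and 22.4% of all genes.

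Without TPMCa replicate 1 none of the 3 was called, the median was -0.13 and 15 genes were higher. The calls were all lost without either TPK library as well, P4ha1 and Slc16a3 were lost without either TPM library, and Slc16a3 also without TPMR1 replicate 2 (edgeR adjusted p = 0.0511), with estimates of 1.32 to 1.78 for Epas1, -1.89 to -1.36 for P4ha1 and -1.64 to -1.08 for Slc16a3. Without TPMCa replicate 2, 5 genes were called, with Slc2a3 and Kdm3a lower besides the 3, and without TPMR1 replicate 1, 6 were called, with Slc2a3, Eno2 and Pfkfb3 lower besides the 3. In these 2 fits 9.58% and 20.2% of all genes were called. Epithelial markers moved with this comparison, all 6 higher in TPK with a median log2 fold change of 7.70, while the endothelial markers, all 5, were lower with a median of -2.06, and their part in these results was not tested.

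A second list of 64 genes of the same pathways, 61 of them tested, covered other genes of the program. It held 25 genes of glycolysis and pyruvate, 10 regulators of HIF and 29 hypoxia response genes. In TPMCa against TPM 48 were higher and 13 lower, with a median of 0.60, and 4 were called: Plod1, a collagen lysyl hydroxylase, at 2.98, Hmox1, heme oxygenase, at 3.07, and Angptl4, an inhibitor of lipoprotein lipase, at 2.92 rose, and Insig2, a regulator of sterol synthesis, fell by 1.96, where 3.48% of all genes were called. These calls were lost without either TPM library or without either TPMCa library, fits that leave 1 library in that model. The replicate block, which keeps all 8 libraries, called 2 of the 61, where it called 2.28% of all genes. DESeq2 called 14 of the 61, where it called 16% of all genes. In TPMR1 against TPM 46 were higher and 15 lower, with a median of 0.61, and Stc1, a secreted glycoprotein, at 3.41, Hmox1 at 2.40 and Angptl4 at 2.33 rose, where 5.58% of all genes were called and 51.6% were higher. None was called in a fit of these 2 models alone, where 0.334% of all genes were called, and the calls were lost without either TPM library. DESeq2 called 12, where it called 18.1% of all genes. None was called between TPMR1 and TPMCa or between TPK and TPM by edgeR, which called 0% of all genes in both. At an unadjusted edgeR p under 0.05 there were 1 and 5, against 11.8% and 7.17% of all genes. DESeq2 called 1 and 0, against 4.83% and 1.51% of all genes. Compared with the average of TPMCa and TPMR1, 46 were lower and 15 higher in TPK, with a median of -0.48, and 8 fell, where 4.06% of all genes were called lower and 49.9% were higher. Fewer were called without either TPK library or without TPMCa replicate 1. DESeq2 called 21, where it called 28.4% of all genes.

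Those 8 were Galk1, galactokinase, with a log2 fold change of -1.88, Hif3a, a further HIF alpha subunit, at -4.47, Vegfa, the main angiogenic factor, at -1.64, Plod1 at -2.84, Plod2 at -3.53, Stc1 at -5.23, Hmox1 at -2.37 and Angptl4 at -1.71. Hif3a had 5 counts in each TPK library, at 0.286 and 0.330 CPM, close to the 3-count floor. It was at 3.95 to 8.60 CPM in TPMCa and TPMR1. In 25 of the 28 tested hypoxia response genes of the list TPK was lower, against 13 of the 23 tested genes of glycolysis and pyruvate. Unlike the first list, the second was less one-sided between the TPMCa libraries, with 42 of 61 genes higher in replicate 1 and a median difference of 0.48.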

How the data were processed

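The authors deposited a table of raw counts per gene for 8 libraries of poly-A RNA, with genes given as symbols. Its columns headed TPMS were read as the TPM libraries, the only model name left. The submitters' processing notes name STAR, DESeq2 and build mm10, without versions, and the counting program and annotation are not given in the sources used here. A second deposited table held the same counts divided by 1 constant per library and was not used. Counts were tested with the quasi-likelihood test of edgeR 4.0.16 in R 4.3.3, with TMM normalization, filterByExpr, 1 fit over 4 models and Benjamini-Hochberg adjustment over 15875 genes. Levels are CPM with TMM factors. Values per kilobase use the exon length of GENCODE M21. The scripts were tested on simulated counts. Alternatives were DESeq2 1.42.0, other size factors, other filters, only the models compared, a replicate block and leaving out each library.

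The 35 genes and the second list were chosen with earlier results of these data known. Genes were named with values in every library when they were called, when they were among the 2 highest or 2 lowest fold changes of a comparison, or as defining genes of their role. Replicates were separate mice by the study's methods, and with 2 per model p-values rest on few residual degrees of freedom. Some engineered alleles are not reported here. The table had 25 gene symbols turned into dates. The 3-count floor covers counting error only, while the SE values of the edgeR fit include the spread between libraries.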

Additional observations from a re-analysis of the deposited data

How the results depend on the processing

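The number of the 34 genes called moved with the method. With DESeq2 it was 3 in TPMCa against TPM, 4 in TPMR1 against TPM, 1 in TPK against TPM and 8 in TPK against the mean of TPMCa and TPMR1, where edgeR gave 1, 1, 0 and 3. In fits of only the models compared it was 3, 0 and 1 in the first, second and last of these. The replicate block gave 0 in TPMCa against TPM, 0 in TPMR1 against TPM and 1 in TPK against the mean. Over all tested genes replicate numbers showed no pairing of the libraries, since correlations of same-numbered deviations ran from -0.069 to -0.008. These correlations were not computed for the 34 genes alone. Replicate 1 was higher for 14 of them in TPM, 32 in TPMCa, 19 in TPMR1 and 28 in TPK. Leaving out single libraries gave 0 to 4 calls in TPMCa against TPM, 0 to 2 in TPMR1 against TPM, 0 to 3 in TPMR1 against TPMCa and 0 to 6 in TPK against the mean. The median log2 fold change then ran from -0.153 to 1.054 in TPMCa against TPM, from -0.479 to 0.479 in TPMR1 against TPMCa and from -0.302 to 0.083 in TPK against TPM. It turned without TPMCa replicate 1 (-0.153 and 0.479) and without TPK replicate 2 (0.083). The cause was not tested.

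Over all genes, edgeR called 553, 886, 0, 0 and 2287 in the 5 comparisons in the order of the report, and DESeq2 called 2547, 2867, 767, 240 and 4516. Fits of only the models compared called 1194, 53 and 1381 in TPMCa against TPM, TPMR1 against TPM and TPK against the mean, and the replicate block 362 and 557 in the first 2. Leaving out single libraries gave 37 to 1680 in TPMCa against TPM, 164 to 2075 in TPMR1 against TPM, 0 to 1383 in TPMR1 against TPMCa, 0 in TPK against TPM and 550 to 3212 in TPK against the mean. Scaling by library size alone moved the median of all genes to -0.108 in TPK against TPM and to -0.125 in TPK against the mean.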

Other observations

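The examples from the second list given here were all among its 8 genes called lower in TPK against the mean of TPMCa and TPMR1. Their separation from TPK therefore follows in part from that choice and is not separate evidence. In these examples the TPMCa and TPMR1 libraries, replicate 2 of TPMCa included, all lay above the TPM and TPK libraries. Of the 61 genes, TPMCa lay wholly above TPM for 32 and below for 8, against 29.1% and 32.2% of all genes. For TPMR1 these were 30 and 7, against 24.5% and 28.4%. TPK lay wholly below TPMCa and TPMR1 for 24 and above for 1, against 18.5% and 22.4%. The share of all genes separated in every one of these ways was not counted. Hmox1, which degrades heme, was at 87.3 and 47.7 CPM in TPM, 664 and 469 in TPMCa, 322 and 393 in TPMR1 and 105 and 69.4 in TPK. Angptl4 was at 19.3 and 19.2 CPM in TPM, 139 and 153 in TPMCa, 84.7 and 109 in TPMR1 and 47.9 and 24.7 in TPK. The TPMCa and TPMR1 ranges did not overlap for either gene, while TPM and TPK overlapped for Hmox1.

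Plod2, which hydroxylates lysine in collagen, was at 39.7 and 71.7 CPM in TPM, 424 and 258 in TPMCa, 297 and 571 in TPMR1 and 50.6 and 15.9 in TPK. Stc1 was at 11.9 and 8.98 CPM in TPM, 66.7 and 81.1 in TPMCa, 64.2 and 158 in TPMR1 and 3.49 and 1.32 in TPK. Vegfa was at 209.9 and 279 CPM in TPM, 652 and 298 in TPMCa, 566 and 548 in TPMR1 and 193 and 137 in TPK, so that its TPMCa replicate 2 lay just above the higher TPM library. TPMCa and TPMR1 overlapped with each other in these 3 genes, and TPM and TPK overlapped in Plod2.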
